A study of Mus musculus with 6 samples.

Results

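A set of 10 genes used to mark stem cells, 5 encoding cell surface proteins (*Cd44*, *Prom1*, *Cd24a*, *Alcam* and *Thy1*) and 5 encoding factors of pluripotent or germ cells (*Pou5f1*, *Nanog*, *Lin28a*, *Lin28b* and *Tex19.1*), was followed in mouse glial cells with and without a mutant histone. They were taken by name from 22911 genes that could be named on the array, and all 10 had at least 1 probe, with 19 probes in all. The cells were OS3, a glial line immortalized with SV40 and derived from newborn C3H/HeN mice (the labels give C3H, brain, glial cell and male). WT cells carried the empty vector (OS3-vector), and IG27 cells carried a plasmid for histone H3.3 with methionine in place of lysine at position 27 (OS3-H3F3A_K27M). Both groups were cultured for 2 days in the same medium before total RNA was extracted. In each group, 3 arrays were measured, all 6 on 1 slide. The IG27 cells came from transfection and drug selection that gave clones, and the labels do not say whether the 3 IG27 samples represent 1 clone or several, so the p-values measure the spread between these samples, which may be technical. An expression probe reads the amount of a transcript and not the base change in the histone gene.

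Stem and progenitor cells are sorted by proteins on their surface. CD44 binds hyaluronan in the matrix, CD24 is a small glycosylated protein held in the membrane by a lipid anchor, ALCAM joins neighboring cells, THY1 is a lipid-anchored protein of neurons and T cells, and prominin-1, the product of *Prom1* known as CD133, sits on membrane protrusions and is widely used for glioma stem cells. Pluripotency in embryonic stem cells rests on a circuit of transcription factors that includes OCT4, the product of *Pou5f1*, and NANOG. LIN28A and LIN28B block maturation of the let-7 microRNAs, and *Tex19.1* is a mammal-specific gene of germ cells, placenta and embryonic stem cells that holds retrotransposons in check.

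The 10 genes did not move as a block between WT and IG27 cells. *Cd24a*, *Alcam* and *Tex19.1* were not well above background on any WT array and were well above it in IG27 cells, at least 80.4-fold, 9.65-fold and 2.4-fold higher, respectively, by the scanner software's processed signals; another background correction gave smaller differences, below. *Cd44* and *Nanog* were measured in both groups and were lower in IG27 cells, by 0.75 ± 0.0722 and 1.84 ± 0.124 on the log2 scale on their brightest probes (SE, n = 3 in each group). The other *Cd44* probes gave differences of -0.24 and -0.03, and the other *Nanog* probe had no signal above background in either group. *Pou5f1* and *Lin28a* were measured in both groups and did not pass the test, and *Prom1*, *Thy1* and *Lin28b* were too dim in both groups to be tested. "Well above background" is the scanner software's own flag for a spot whose signal clearly exceeds its surroundings. Levels below are normalized log2 intensities, in which 0 is the 75th percentile of the array, and each level belongs to its own probe, so levels of different probes are not set against each other. Differences are IG27 minus WT, tested with limma and adjusted over the 14898 genes that passed the filter on dim probes. A gene that is above background in only 1 group entered that test through the group where it is high and so had to differ, and it is given by its lower bound with no p.

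**Figure D1:**
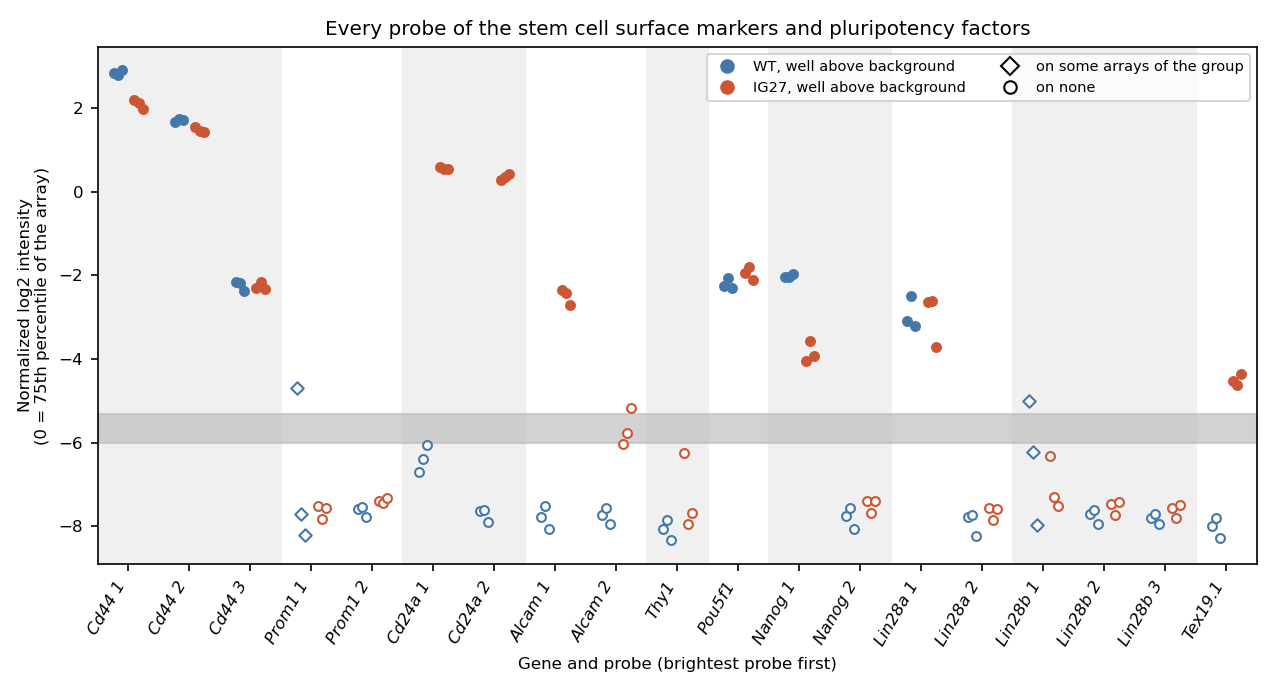
Normalized log2 intensity (vertical axis, 0 is the 75th percentile of the array) of all 19 probes of the 10 genes on each of 3 WT arrays (blue) and 3 IG27 arrays (red). Filled circles are groups in which every complete array was well above background, diamonds groups in which some were and open circles groups in which none was; IG27 replicate 2 has no flag of its own. The gray band is the range over the complete arrays of the lowest level called well above background. Both *Cd24a* probes, 1 *Alcam* probe and the *Tex19.1* probe cross the band between WT and IG27 cells.

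Most of the genes that passed the filter differed between the groups, so a call by itself does not set a gene apart. Of these 14898 genes, 70.5% were called, 30.5% higher and 40.0% lower in IG27 cells, and 75.7% had groups that did not overlap. Of the 10 genes, 7 were tested and 5 were called, 3 higher and 2 lower, and the same 5 had groups that did not overlap. The 3 called higher, *Cd24a*, *Alcam* and *Tex19.1*, entered the test through IG27 cells, so their call, direction and lack of overlap were set by the filter. The share of the 7 that was called is therefore not compared with that of all genes. *Cd44*, *Nanog*, *Pou5f1* and *Lin28a* were measured in both groups, and 2 of these 4 were called, both lower. So few genes give no share to compare. Of the 19 probes, 10 were tested, and 69.7% of all probes tested were called. Among the 14898 genes tested, 3.09% changed in detection as *Cd24a*, *Alcam* and *Tex19.1* did, from no WT array to both IG27 arrays that carry flags. Their number is given as a description with no test.

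*Cd24a* had the largest lower bound of the 3 genes that rose from background. Its brighter probe read -6.70, -6.39 and -6.06 in WT replicates 1, 2 and 3 and 0.60, 0.54 and 0.53 in the IG27 replicates. Its other probe read -7.65, -7.62 and -7.90 in WT cells and 0.27, 0.36 and 0.42 in IG27 cells. All WT values lay below the level at which a spot is called above background, all IG27 values lay far above it, and the 2 probes placed the difference at no less than 80.4-fold and 69.6-fold. These bounds set the IG27 mean against the lowest level called well above background on each WT array, because the WT signal itself is not a measured level. Where samples of a bulk culture differ, more cells carrying a transcript and more transcript per cell cannot be told apart, and this holds for every gene described here.

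*Alcam*, the cell adhesion molecule also called CD166, was read by a pair of probes. The brighter probe gave -7.78, -7.52 and -8.08 in WT cells and -2.36, -2.43 and -2.71 in IG27 cells, a rise of no less than 9.65-fold. The other probe read -7.74, -7.56 and -7.95 in WT cells and -6.04, -5.77 and -5.18 in IG27 cells. It was not well above background on any array that carries flags, so it was not tested and its values give no size.

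*Cd44*, the hyaluronan receptor, was measured in both groups by all of its 3 probes. Its brightest probe read 2.85, 2.80 and 2.90 in WT cells and 2.20, 2.12 and 1.98 in IG27 cells, and the groups did not overlap. The difference was -0.75 (95% interval -0.93 to -0.57, adjusted p = 0.000153, limma). A second probe read 1.68, 1.75 and 1.72 in WT cells and 1.54, 1.46 and 1.43 in IG27 cells, a smaller difference of -0.24 ± 0.0533 (SE, adjusted p = 0.00718, limma over all probes tested). On the dimmest probe the groups overlapped, at -2.16, -2.17 and -2.38 in WT cells and -2.31, -2.15 and -2.33 in IG27 cells (difference -0.03, adjusted p = 0.807, limma over all probes tested). The size of the *Cd44* difference therefore depended on the probe, and the mean of the 3 probes gave -0.34 (adjusted p = 0.00139, limma). The sequences of these probes and the *Cd44* exons they read were not used here.

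*Prom1* and *Thy1* were at or near background in both groups. The brighter *Prom1* probe was well above background on 1 array, WT replicate 1, at -4.70, against -7.72 and -8.21 on the other WT arrays and -7.53, -7.83 and -7.56 on the IG27 arrays. The *Thy1* probe was well above background on no array that carries flags, with values of -8.08, -7.86 and -8.34 in WT cells and -6.24, -7.95 and -7.69 in IG27 cells. Values at this floor have no order. A level of either transcript was not detectable with these probes beyond that 1 array, which does not show that it was absent.

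Of the pluripotency factors, *Nanog* was lower and *Tex19.1* higher in IG27 cells. The *Nanog* probe with signal read -2.04, -2.05 and -1.96 in WT cells and -4.05, -3.58 and -3.94 in IG27 cells, and every IG27 value lay below every WT value (difference -1.84, 95% interval -2.14 to -1.53, adjusted p = 3.08e-05, limma). The other *Nanog* probe was at the floor on every array that carries flags. *Tex19.1* was read by 1 probe at -8.00, -7.80 and -8.29 in WT cells and -4.53, -4.63 and -4.37 in IG27 cells, a rise of no less than 2.4-fold. The *Tex19.1* level in IG27 cells was close to the limit of detection. The study drew a stemness heat map from these samples, and the members were chosen with earlier results known. *Tex19.1* is therefore no independent sign of a direction. Its neighbor and paralog *Tex19.2* was well above background in both groups and rose by 0.87 ± 0.156 (SE, adjusted p = 0.00268, limma).

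*Pou5f1* and *Lin28a* were detected in both groups. *Pou5f1* read -2.24, -2.07 and -2.31 in WT cells and -1.93, -1.81 and -2.12 in IG27 cells. IG27 replicate 3 lay below WT replicate 2, and the difference of 0.26 (95% interval 0.00 to 0.51) had an adjusted p of 0.0654 in limma. The call was decided by single arrays, since *Pou5f1* passed the test without IG27 replicate 3 (0.34, adjusted p = 0.0249) and without WT replicate 2 (0.32, adjusted p = 0.0419). *Lin28a* read -3.10, -2.50 and -3.21 in WT cells and -2.64, -2.62 and -3.71 in IG27 cells, which overlapped. Its difference was -0.06 with a 95% interval of -0.91 to 0.79 (adjusted p = 0.894, limma), so a difference within these bounds in either direction was not resolved. The second *Lin28a* probe was at the floor in both groups. *Lin28b*, the paralog of *Lin28a*, had 3 probes, of which 1 was well above background on WT replicate 1 (-5.00) and none on the other arrays that carry flags.

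**Figure D2:**
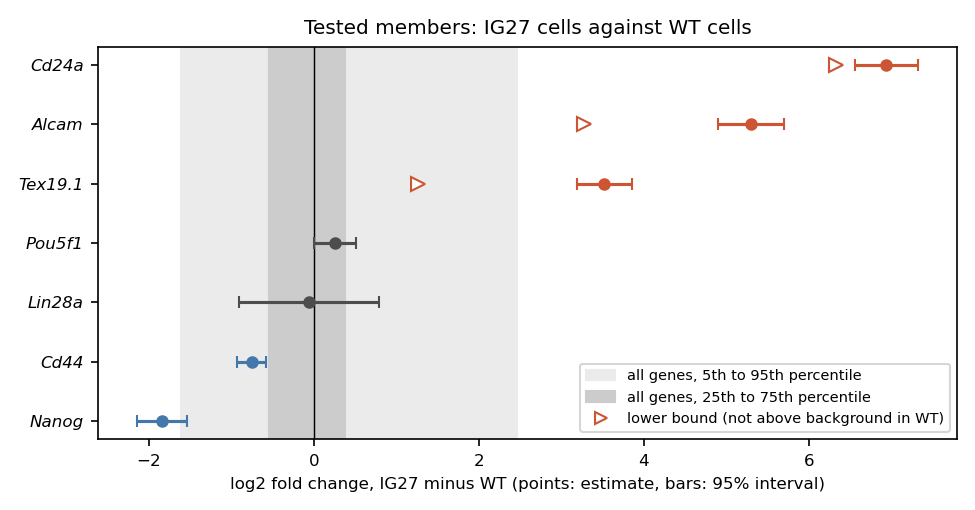
Log2 fold change, IG27 minus WT, of the 7 genes tested (points) with 95% intervals from limma (bars). Triangles are lower bounds for *Cd24a*, *Alcam* and *Tex19.1*, whose WT signal was not above background and whose points are therefore no measured size, and gray bands hold the 5th to 95th (-1.61 to 2.46) and 25th to 75th (-0.54 to 0.37) percentiles of all genes tested. Each point is the gene's brightest probe, and the other *Cd44* probes gave smaller differences. *Nanog* (-1.84) lies below the 5th percentile, and *Cd44* (-0.75) lies between the 5th and the 25th.

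The calls of *Cd44* and *Nanog* kept their direction and their side of the threshold in each alternative fit. *Cd24a*, *Alcam* and *Tex19.1* entered the test through the group where they are high, so no such check is claimed for them. Normexp, another background correction, was run on the scanner's median signals and median local background, with a constant of 50 added. It gave log2 differences of 4.37 for *Cd24a*, 1.76 for *Alcam* and 0.86 for *Tex19.1*, smaller than the lower bounds above, which are 6.33, 3.27 and 1.26 on that scale. The added constant by itself shrinks differences between low signals, and its part was not told apart from that of the background correction. The bounds are therefore stated for the software's processed signals only. All IG27 arrays and WT replicate 2 lay in 1 row of the slide. With the row as a block, which compares IG27 cells with WT replicate 2, the differences were -0.70 for *Cd44* and -1.80 for *Nanog*. *Cd24a*, *Alcam* and *Tex19.1* were not well above background on that WT array, so the comparison gives them no size.

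Promoters are shown for *Alcam* and *Tex19.1*, which rose from background, and for *Cd44* and *Nanog*, which fell, and were counted for CpG dinucleotides, the pair of bases at which mammalian DNA is mostly methylated. Each sequence is the 250 bases before the gene's start in RefSeq, build GRCm38.p6, read 5′ to 3′ on the gene's strand, with every CG in capitals. *Alcam* lies on the minus strand (chr16:52453082-52453331), *Tex19.1* on the plus strand (chr11:121145893-121146142), *Cd44* on the minus strand (chr2:102901666-102901915) and the first of the *Nanog* starts on the plus strand (chr6:122707239-122707488).
Alcam: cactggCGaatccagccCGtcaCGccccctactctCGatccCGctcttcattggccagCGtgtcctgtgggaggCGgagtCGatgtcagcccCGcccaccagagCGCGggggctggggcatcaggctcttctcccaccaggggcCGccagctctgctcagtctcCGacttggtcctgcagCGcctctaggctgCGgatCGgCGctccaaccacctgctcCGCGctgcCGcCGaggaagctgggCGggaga
Tex19.1: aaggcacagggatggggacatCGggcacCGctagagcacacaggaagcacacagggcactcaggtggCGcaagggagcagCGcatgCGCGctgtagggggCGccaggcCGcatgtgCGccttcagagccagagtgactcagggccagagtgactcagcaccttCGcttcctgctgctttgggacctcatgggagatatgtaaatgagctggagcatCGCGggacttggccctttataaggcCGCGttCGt
Cd44: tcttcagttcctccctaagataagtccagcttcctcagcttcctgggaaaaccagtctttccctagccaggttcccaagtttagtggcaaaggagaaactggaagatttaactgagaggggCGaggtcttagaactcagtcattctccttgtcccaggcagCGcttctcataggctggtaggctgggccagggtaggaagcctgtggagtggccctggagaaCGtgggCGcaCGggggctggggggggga
Nanog: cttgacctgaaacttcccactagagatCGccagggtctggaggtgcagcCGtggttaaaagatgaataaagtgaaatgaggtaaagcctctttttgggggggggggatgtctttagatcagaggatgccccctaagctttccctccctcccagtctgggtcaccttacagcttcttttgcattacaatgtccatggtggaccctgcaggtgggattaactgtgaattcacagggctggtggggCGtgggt
The *Alcam* window held 22 CG and the *Tex19.1* window 15, against 5 in the *Cd44* window and 3 in the *Nanog* window, with 2 at the other *Nanog* start. Of the members not called or not tested, *Pou5f1* held 8 and 6 at its starts, *Lin28a* 7, *Lin28b* 6 and *Prom1* 3 and 9. Over 32851 promoter windows of the same length, the median was 6 (quartiles 2 and 16), and 92.1% held at least 1 CG, which reads the same on both strands. Fewer CG than in the *Alcam*, *Tex19.1*, *Cd44* and *Nanog* windows printed here were found in 85.2%, 72.7%, 44.4% and 29.0% of all windows, respectively. With both strands searched, the *Tex19.1* window also held TATAAA, as did 12.4% of all windows, and the other 3 did not. In the *Tex19.1* window it lies on the opposite strand only, so the printed letters read TTTATA. *Cd24a* and *Thy1* are not in the promoter table. These are counts of letters in a few windows chosen with the calls known, and methylation or factor binding was not measured.

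Around *Nanog* and *Pou5f1*, 30 further genes of the embryonic stem cell network were followed, of which 18 were tested, 9 were called higher, 2 lower and 7 not called, beside 30.5% higher and 40.0% lower over all genes tested, and the median log2 difference was 0.46 against -0.07. *Klf4*, a reprogramming factor, rose by 4.79 ± 0.0587 (SE), and *Dnmt3l*, the cofactor of the de novo DNA methyltransferases, rose by 3.80 ± 0.0828 (adjusted p = 7.43e-08 and 3.11e-07, limma). *Tfcp2l1*, a factor of the naive state, was at least 2.23-fold higher in IG27 cells, and *Fbxo15*, a target of OCT4 and SOX2, was at least 1.08-fold lower, a bound close to no change. *Sox2*, which works with OCT4 and also marks neural progenitors, was called lower with a difference of -0.80 ± 0.0668 (adjusted p = 7.72e-05, limma). The list was thus mixed, and 8 of its 30 genes, among them *Zfp42*, *Dppa3* and *Fgf4*, were well above background on no array that carries flags. *Tfcp2l1* and *Lefty1* entered the test only through IG27 cells and *Fbxo15* only through WT cells. The filter set their calls and directions, so the counts and the median are a description with no comparison.

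Around *Lin28a* and *Lin28b*, 21 genes that act on let-7 or are known let-7 targets were followed, of which 20 were tested, 8 higher, 7 lower and 5 not called, beside 30.5% higher and 40.0% lower over all genes tested, and the median log2 difference was 0.00 against -0.07. The targets *Hmga1*, a chromatin protein, and *Myc* rose by 2.21 ± 0.0545 and 1.19 ± 0.0587 (SE, adjusted p = 4.86e-07 and 7.7e-06, limma), though the *Hmga1* probes ranged from 0.39 to 2.37. *Cdk6*, a cell cycle kinase, was at least 3.79-fold higher in IG27 cells, while *Igf2bp1*, an RNA-binding protein of fetal tissue, was at least 2.07-fold lower. *Cdk6* entered the test only through IG27 cells and *Igf2bp1* only through WT cells, so their calls and directions were set by the filter. The counts and the median are a description with no comparison. Let-7 itself was not examined here.

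Around *Cd44*, genes that bind or act on CD44 or its ligand hyaluronan were followed. Of 19 enzymes, ligands, linkers, proteases and splicing factors, 13 were tested, 9 were lower, 2 higher and 2 not called, and the median difference was -0.71 on the log2 scale, beside 40.0% lower, 30.5% higher and a median of -0.07 over all genes tested. *Has2*, which makes the ligand hyaluronan, rose by 1.49 ± 0.0641 (SE). *Hyal2*, which degrades it, fell by 1.36 ± 0.0683, *Tnfaip6*, which modifies it, fell by 1.31 ± 0.0587, and *Adam10*, a protease that sheds CD44, fell by 2.08 ± 0.0614 (adjusted p from 9.77e-07 to 8.41e-06 for these 4 genes, limma). *Ezr*, *Rdx* and *Msn*, which tie the CD44 tail to actin, were all called lower, at -1.20, -1.12 and -0.57. The CD44 splicing factor *Esrp1* read -0.03 and was not called (adjusted p = 0.855, limma), and *Esrp2* was at background in both groups.

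Of 20 other surface markers of stem and progenitor cells, 19 were tested, 9 were higher, 9 lower and 1 not called, beside 30.5% higher and 40.0% lower over all genes tested, and the median log2 difference was 0.30 against -0.07. *Lgr5*, the R-spondin receptor of intestinal stem cells, was at least 47.0-fold higher in IG27 cells, and *Epcam*, an epithelial adhesion molecule, at least 15.4-fold. *Abcg2*, the drug efflux pump of side population cells, was well above background on 1 of 3 WT arrays, with values of -5.99, -6.57 and -4.79 in WT cells and 3.72, 3.46 and 3.52 in IG27 cells. Its WT mean lay at the limit of detection, so no size is given. *Nt5e*, *Cd34*, *Epcam* and *Lgr5* entered the test only through IG27 cells, so their call and direction were set by the filter. The filter also favored a higher value for *Abcg2*. The counts and the median of this list are therefore given as a description with no comparison. *Ngfr*, the low-affinity neurotrophin receptor of neural crest and glial cells, fell by 2.92 ± 0.0581 (adjusted p = 2.3e-07, limma).

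**Figure D3:**
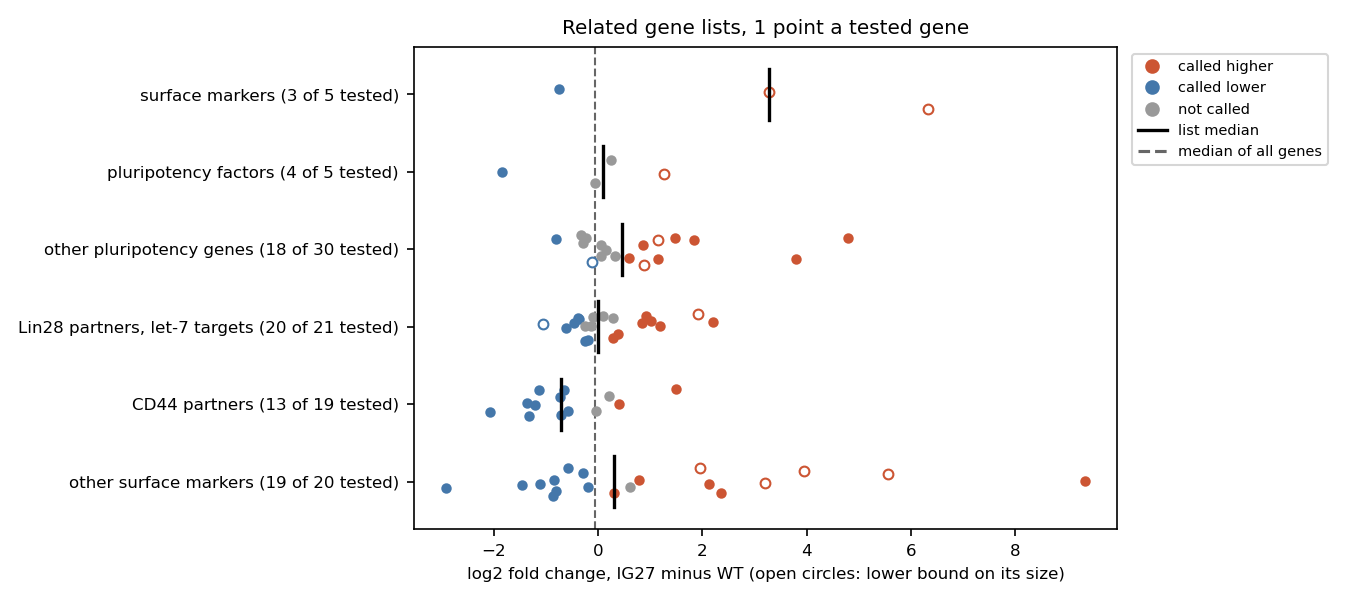
Log2 fold change, IG27 minus WT, of every tested gene of the 10 members (upper 2 rows) and of 4 related lists, with calls colored, genes dim in 1 group drawn as open circles at their lower bound, list medians as black bars and the median of all genes (-0.07) as a dashed line. *Abcg2*, farthest right, was above background on 1 of 3 WT arrays and has no bound, so its filled point is no measured size. The CD44 partners have their median at -0.71 and the other pluripotency genes at 0.46.

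The labelled cell type was checked with its markers, and so were other cells that carry these surface proteins. Of 12 markers of astrocytes, oligodendrocytes and their progenitors, all 12 were tested, and *Gfap*, *Sox10* and *Nes* were well above background on every array that carries flags and were called lower in IG27 cells (-1.07, -0.37 and -0.495). The 2 *Gfap* probes tested went in opposite directions, at -1.07 and 0.19. The summed level of the 12, in multiples of the array's 75th percentile, was 204 to 217 in WT cells and 154 to 164 in IG27 cells. Such a sum adds different probes and is carried by the brightest, here *Gfap*, *Sox10* and *Nes*. It sets the groups side by side and gives no amount of a cell type, and the same holds for the sums below. Of the 12 glial markers, 5 were higher and 6 lower in IG27 cells, beside 30.5% higher and 40.0% lower over all genes tested. Among them were *S100b* (4.93), *Olig2* (1.51) and *Aldh1l1* (-1.72) on the log2 scale and *Slc1a3* (at least 20.6-fold higher). *Mbp* was called higher on its brightest probe (0.92), while its probes ranged from -2.30 to 0.92. The same shares over all genes stand beside the counts of the marker lists below, and such counts do not set a cell type apart. Of 10 blood cell markers, which bear on *Cd44*, *Cd24a* and *Thy1*, 6 were tested, 2 were higher, 1 was lower, and *Ptprc*, *Cd3g*, *Cd8a* and *Cx3cr1* were well above background on no array that carries flags. Their summed level was 11.1 to 12.0 in WT cells and 13.0 to 13.6 in IG27 cells, with *Itgam* higher (0.20), *Aif1*, well above background on 1 of 3 WT arrays, called higher, and *Cd79a*, well above background on 1 of the 2 IG27 arrays that carry flags, called lower. Of 9 neuronal markers, which bear on *Thy1*, *Alcam* and *Cd24a*, 5 were tested, with *Map2*, which was well above background on 1 of 3 WT arrays, called higher and *Tubb3* (-2.63) and *Stmn2* (at least 5.34-fold) lower, and the summed level was 17.6 to 20.0 in WT cells and 10.0 to 11.1 in IG27 cells. *Rbfox3*, *Syt1* and *Nefl* were well above background on no array that carries flags. Of 5 endothelial markers, *Kdr* was at least 135-fold higher in IG27 cells and *Pecam1* was lower (-0.27), the summed level was 0.172 to 0.194 in WT cells and 2.60 to 2.67 in IG27 cells, and *Cdh5*, *Tek* and *Cldn5* were well above background on no array that carries flags. Of the markers called, *Slc1a3*, *Aif1*, *Map2* and *Kdr* entered the test only through IG27 cells, and *Cd79a* and *Stmn2* only through WT cells. The filter favored the direction of each, so these calls are a description. The part of the marker changes in the differences of *Cd44*, *Cd24a* and *Alcam* was not tested.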

How the data were processed

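RNA of 3 WT and 3 IG27 samples of OS3 cells was measured on single-color Agilent arrays of 1 slide. The authors read the scans with Agilent Feature Extraction (version 9.1 per the labels, 10.7.3.1 per the file headers), and the deposited values are processed signal intensities on a linear scale. For IG27 replicate 2 the scanner output used here stops after 285 complete spots, so this array's intensity values came from the deposited value table. All 255 single-spot probes in both were equal (relative tolerance 1e-04), and this array has no background flags. In that table the columns of WT replicates 2 and 3 are exchanged relative to the scanner output, whose labels were followed. Of the probes, 58.8% to 61.2% were well above background on the 5 complete arrays, the median local background was 29.0 to 34.0, no spot was saturated, and the number of arrays limits the precision.

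Intensities were taken as log2 minus the array's 75th percentile, without outlier spots (107 to 210 per complete array). Probes were named through RefSeq accessions with a GRCm38.p6 table (32994 of 35886 probes matched). A gene entered the test where, in WT or IG27 cells or both, all complete arrays of the group had a probe well above background. The brightest probe stood for a gene. The test was limma's (lmFit and eBayes, two-sided, without a block; limma 3.58.1, R 4.3.3), adjusted by Benjamini-Hochberg and called at 0.05. A gene not above background in 1 group is given as a bound, the bright group's mean over the dim group's mean of the lowest level well above background on each array, or the probe's own level where higher. The limma test alone was tried on simulated data. The filter on dim probes, the choice of probe and the bounds were not.

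The 10 members and all lists were chosen with earlier results of these data known. All members were named, and of each list up to 4 called genes with groups that did not overlap, by size of the change, at most 3 of 1 direction. *Sox2*, *Tex19.2*, *Ezr*, *Rdx*, *Msn*, *Esrp1*, *Esrp2* and the undetected or detected markers named were chosen after their values were seen. The 16 alternatives were another normalization, background correction, filters, probe and spot rules, eBayes with trend, blocks for replicate and slide row, an unadjusted threshold and each array left out.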

Additional observations from a re-analysis of the deposited data

How the results depend on the processing

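The count of members called lower was 2 under every alternative run, *Cd44* and *Nanog* each time. The count called higher was 3, all of them genes that entered the test through IG27 cells. It was 0 with a stricter filter that needs signal in both groups, which removes *Cd24a*, *Alcam* and *Tex19.1* from the test by construction. Leaving out each array in turn gave 3 to 4 members called higher, with *Pou5f1* added without IG27 replicate 3 and without WT replicate 2. With the replicate block the count was 4, *Pou5f1* being called at 0.26 (adjusted p = 0.0162, limma). The replicate numbers are only shared numbers, since deviations of samples with the same number from their group means correlated at 0.0118, 0.0395 and 0.0763, and not every sample correlated best with its own number; over all genes the block moved the calls from 10501 to 10309. At an unadjusted p of 0.05 the count was also 4. Over the alternatives *Pou5f1* ranged from 0.12 to 0.34 (adjusted p from 0.0162 to 0.483), *Lin28a* from -0.49 to 0.30 with no call (adjusted p from 0.286 to 0.909), *Cd44* from -0.80 to -0.34 (highest adjusted p = 0.00346) and *Nanog* from -2.02 to -1.35. *Cd24a*, *Alcam* and *Tex19.1* are known only by lower bounds, so no range of their size is given. Normexp was run on the 5 complete arrays. Signal over background limits *Prom1*, *Thy1*, *Lin28b* and the WT levels of *Cd24a*, *Alcam* and *Tex19.1*.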
